A study of Rattus norvegicus with 6 samples.

Results

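The genes described here are 10 secreted signalling proteins: the interleukin-6 family ligands Il6, Lif and Il11, the interleukin-1 family ligands Il1a, Il1b and Il33, the lymphocyte growth factor Il15, the colony-stimulating factors Csf1 and Csf2, and tumour necrosis factor, Tnf. They were taken by gene name from the count tables, where 9 of the 10 had a row among 18077 and no name repeated. No row named Il11 was found, and Il11 is not analysed here. RNA was sequenced from 6 libraries of rat heart cultures. The 3 Ad-RNF128 libraries came from cells given an adenovirus for overexpression of RNF128, a transmembrane ubiquitin ligase, and the 3 Ad-GFP libraries from cells given a green fluorescent protein adenovirus. All cultures of both groups came from pups of 1 to 3 days and were given palmitic acid, a fatty acid without double bonds, at 500 µM for 24 h; the labels give harvest at 48 h. The labels describe pre-plating and BrdU against fibroblasts, name no promoter for the vectors, and state neither separate animals nor cultures for the replicates. Spread between libraries, on which every p-value rests, may thus be technical only. The treatment text writes the ligase once as RNF28 and once as RNF128, and the titles give RNF128.

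Cytokines of this kind are made in small amounts by resting cells and are induced by infection, injury and lipid stress, largely through the transcription factors NF-kB, AP-1 and C/EBP and, for some, through interferon signalling. Ligands of the interleukin-6 family signal through a shared receptor chain, gp130, encoded by Il6st. They are known for driving the acute phase response and, in the heart, growth of cardiomyocytes. Interleukin-1 ligands and TNF start inflammatory cascades, and the colony-stimulating factors support macrophages and granulocytes. In the heart, fibroblasts, endothelial cells and resident macrophages are known sources besides the muscle cells.

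The libraries held 16352844 to 21708973 counts, and values are given as CPM, counts scaled to the library total, without correction for gene length, so levels are compared between libraries and not between genes. The overexpressed gene did not mark the groups: Rnf128 had 1, 3 and 1 reads in the libraries labelled Ad-RNF128, against 0, 2 and 1 reads in those labelled Ad-GFP, each in the order of replicates 1 to 3. The 3 libraries labelled Ad-RNF128 are called by that label throughout, and every direction rests on it. Ad-GFP replicate 1 stood apart, with Spearman correlations across genes of 0.776 to 0.818 with the other 5 libraries, which had 0.964 to 0.989 among themselves. It had 10.8% of its reads on ribosomal protein genes, 0.951% on mitochondrial genes and 3551 rows without a read. The Ad-RNF128 libraries had 4.30 to 4.69% ribosomal, 3.08 to 3.32% mitochondrial and 1190 to 1487 rows without a read, against 3.02 to 3.29%, 4.91 to 5.35% and 2200 to 2288 in Ad-GFP replicates 2 and 3. Ad-GFP replicate 1 is therefore given separately, and calls come from the fit without it unless all 6 libraries are named. Of 10 cardiomyocyte markers with a row, Tnnt2 was at 57.4, 42.3 and 34.02 CPM in Ad-RNF128, against 342 and 350.4 CPM in Ad-GFP replicates 2 and 3 and 13.3 CPM in Ad-GFP replicate 1. It fell by 3.12 ± 0.13 on the log2 scale (edgeR adjusted p = 6.43e-11). The other 9 were at most at 17.5 CPM in any library and not called or not tested, with Myh6 at 14.3, 10.8 and 0.104 CPM in Ad-RNF128 and 16.0, 13.4 and 11.1 CPM in Ad-GFP, and Nppa at 3.74, 2.72 and 0 CPM in Ad-RNF128 and 3.97, 3.49 and 3.33 CPM in Ad-GFP. The matrix gene Col1a1 was at 3659 to 4016 CPM in Ad-RNF128 and at 1100, 17690 and 18266 CPM in Ad-GFP. Reads of most genes that define cardiomyocytes were thus few, and the samples are called cultures here.

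RefSeq promoter windows (rat build GRCr8, from 250 bases before to 50 bases after a start of transcription) were matched by symbol for 8 of the 10 genes, all but Lif and Csf1. Shown are the windows of the 3 genes with a window that were higher in Ad-RNF128 in the results that follow, Il6, Tnf and Il15, and that of Il1b, which was almost without reads, because these genes share inducers in textbook accounts. They lie at chr4:5894526-5894825 (minus strand), chr20:3626435-3626734 (plus strand), chr19:42544456-42544755 (plus strand) and chr3:137036532-137036831 (minus strand). Each is printed in the direction of transcription, and capitals mark matches to 6 motifs searched on both strands: the NF-kB consensus, AP-1 (TGANTCA), the cyclic AMP element CRE (TGACGTCA), C/EBP (TTGNGNAA), the interferon-stimulated response element (GAAA, any 2 bases, GAAA) and the TATA box (TATAAA).
Il6: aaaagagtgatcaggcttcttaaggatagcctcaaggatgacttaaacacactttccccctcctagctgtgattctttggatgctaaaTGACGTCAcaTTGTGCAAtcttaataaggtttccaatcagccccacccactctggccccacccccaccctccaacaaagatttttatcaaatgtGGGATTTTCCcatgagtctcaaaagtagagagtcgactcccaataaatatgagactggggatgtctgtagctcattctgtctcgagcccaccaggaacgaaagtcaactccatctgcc
Tnf: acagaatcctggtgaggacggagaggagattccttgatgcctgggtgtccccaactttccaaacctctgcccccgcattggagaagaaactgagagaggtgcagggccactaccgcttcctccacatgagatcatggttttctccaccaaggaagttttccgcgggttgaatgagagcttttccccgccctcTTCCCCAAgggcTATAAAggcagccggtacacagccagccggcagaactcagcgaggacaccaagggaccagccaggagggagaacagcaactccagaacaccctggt
Il15: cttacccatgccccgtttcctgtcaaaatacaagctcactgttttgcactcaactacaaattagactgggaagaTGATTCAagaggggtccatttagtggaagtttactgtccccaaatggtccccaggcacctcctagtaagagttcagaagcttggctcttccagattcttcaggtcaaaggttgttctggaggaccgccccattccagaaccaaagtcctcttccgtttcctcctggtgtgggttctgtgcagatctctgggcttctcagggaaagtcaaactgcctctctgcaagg
Il1b: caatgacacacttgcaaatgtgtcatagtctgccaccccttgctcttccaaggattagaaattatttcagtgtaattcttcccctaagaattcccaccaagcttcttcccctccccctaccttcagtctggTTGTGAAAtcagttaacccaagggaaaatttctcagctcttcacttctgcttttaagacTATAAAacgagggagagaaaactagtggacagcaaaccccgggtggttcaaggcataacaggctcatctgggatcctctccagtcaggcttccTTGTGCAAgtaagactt

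The Il6 window held a CRE match beginning 162 bases before the start, a C/EBP match at 152 bases and an NF-kB match at 68 bases. Among all 33469 windows of this length 1.83% held the CRE letters, 13.3% the C/EBP letters and 7.51% the NF-kB consensus. The Tnf window held a C/EBP match at 58 bases and a TATA match at 46 bases before the start, and 14.2% of all windows hold the TATA letters. In the Il15 window an AP-1 match began 176 bases before the start, and 7.33% of all windows hold one. The Il1b window held C/EBP matches 119 bases before and 33 bases after the start of transcription and a TATA match at 60 bases before it. No match to the interferon-stimulated element, which 3.92% of all windows hold, was found in these 4 windows, and no 2 matches overlapped. The motifs were chosen after the values were seen, and a match is a description of these letters and not of binding.

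Among the interleukin-6 family, Il6 and Lif were higher in Ad-RNF128 than in Ad-GFP replicates 2 and 3, and Ad-GFP replicate 1 lay on opposite sides for the 2 genes. Il6 (ENSRNOG00000010278), which encodes the fever and acute phase cytokine interleukin-6, was at 13.6, 16.4 and 11.9 CPM in Ad-RNF128 replicates 1 to 3, against 4.93 and 3.52 CPM in Ad-GFP replicates 2 and 3 and 1.10 CPM in Ad-GFP replicate 1. Every Ad-RNF128 library was above every Ad-GFP library. Without Ad-GFP replicate 1, Il6 rose by a log2 change of 1.59 ± 0.17 (SE), with an edgeR adjusted p of 1.97e-06, in a comparison that called 28.9% of all genes tested as higher. In bulk RNA of this kind, a change in the number of cells that make a transcript and a change in transcript per cell cannot be told apart. With all 6 libraries the log2 change was 1.76 ± 0.41 and the adjusted p 0.29, and 2.41% of the genes tested had a larger log2 change. DESeq2 over the same 6 libraries gave 1.59 with an adjusted p of 0.0054.

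Lif (ENSRNOG00000007002) encodes leukaemia inhibitory factor, a gp130 ligand known for inducing growth of cardiomyocytes. It was at 27.7, 31.8 and 27.1 CPM in Ad-RNF128 replicates 1 to 3, against 17.4 and 16.5 CPM in Ad-GFP replicates 2 and 3 and 29.2 CPM in Ad-GFP replicate 1. The last value lies inside the range of the Ad-RNF128 libraries, so the groups overlap. Lif rose without Ad-GFP replicate 1 by 0.61 ± 0.09 on the log2 scale (edgeR adjusted p = 6.17e-05). The log2 change of Lif over all 6 libraries was -0.39 ± 0.65 (adjusted p = 0.92) with TMM scaling, a correction for library composition that gave Ad-GFP replicate 1 a factor of 0.47 and the other libraries 1.08 to 1.22, and 0.45 with library totals alone. Scaled by TMM, Lif was at 22.6, 26.1 and 22.4 in Ad-RNF128 and at 62.1, 15.9 and 15.4 in Ad-GFP replicates 1 to 3. The sign for Lif therefore depends on 1 library and on the scaling.

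**Figure D1:**
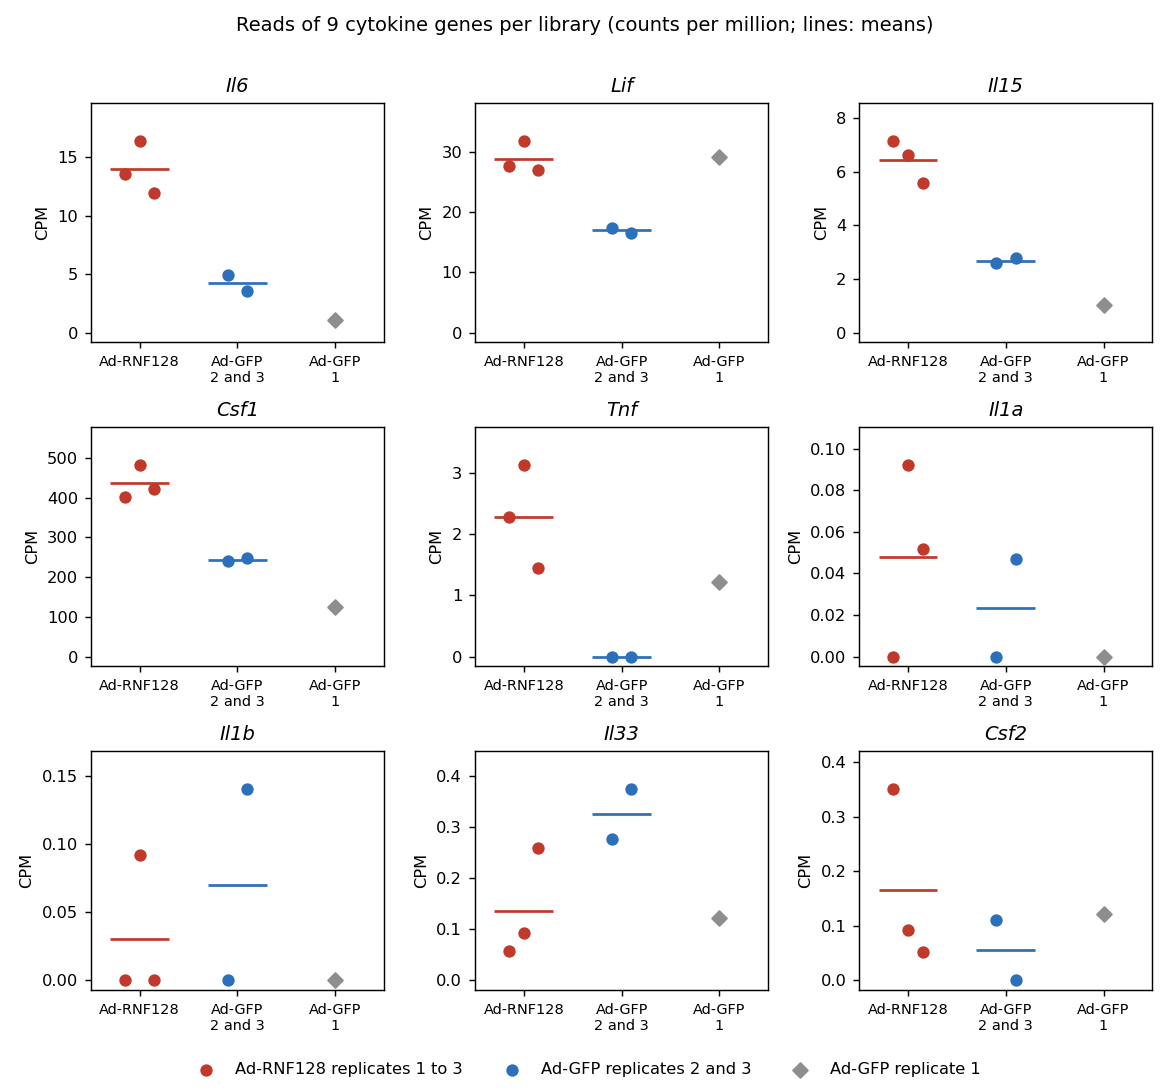
CPM of 9 cytokine genes in each library, with Ad-RNF128 replicates 1 to 3 on the left, Ad-GFP replicates 2 and 3 in the middle and Ad-GFP replicate 1 on the right; points are libraries, lines are means, and each panel has its own axis. Il6, Il15 and Csf1 are lowest in Ad-GFP replicate 1, where Lif is at 29.2 CPM and Tnf at 1.22 CPM, while Il1a, Il1b, Il33 and Csf2 stay at or below 0.375 CPM in every library.

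Il15 and Csf1 were higher in each Ad-RNF128 library than in each Ad-GFP library. Il15 (ENSRNOG00000003439), a growth and survival factor of natural killer and memory T cells, was at 7.13, 6.63 and 5.56 CPM in Ad-RNF128, against 2.60 and 2.77 CPM in Ad-GFP replicates 2 and 3 and 1.04 CPM in Ad-GFP replicate 1. The Ad-RNF128 mean was 6.44 ± 0.81 CPM and the Ad-GFP mean over all 3 libraries 2.14 ± 0.95 CPM (SD, n = 3 each). Without Ad-GFP replicate 1 the rise was 1.10 ± 0.18 on the log2 scale (edgeR adjusted p = 0.000133), and over all 6 libraries the log2 change was 1.15 ± 0.33 (adjusted p = 0.49). The 2 fits thus differ little in the size of the change and much in the adjusted p.

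Csf1 (ENSRNOG00000018659), the ligand that keeps macrophages alive and growing, had 37116 counts over the 6 libraries. It was at 402, 482 and 423 CPM in Ad-RNF128, against 239.9 and 247 CPM in Ad-GFP replicates 2 and 3 and 125 CPM in Ad-GFP replicate 1. The groups did not overlap, and with TMM scaling over 6 libraries they did not overlap either, with 329, 395 and 350.1 in Ad-RNF128 and 266, 219 and 229 in Ad-GFP replicates 1 to 3. Csf1 rose by 0.69 ± 0.08 on the log2 scale without Ad-GFP replicate 1 (edgeR adjusted p = 3.6e-06), where 13.1% of the genes tested had a larger log2 change. Over all 6 libraries the log2 change was 0.59 ± 0.32 (adjusted p = 0.68).

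Csf2 (ENSRNOG00000026805), which encodes the granulocyte and macrophage factor GM-CSF, had 6, 2 and 1 reads in Ad-RNF128, against 2, 2 and 0 reads in the Ad-GFP libraries. The groups overlap. The ratio of Csf2 counts per total, Ad-RNF128 over Ad-GFP replicates 2 and 3, was 3.05 with an exact 95% counting interval of 0.632 to 29.0, so no difference was detectable at this depth.

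Tnf (ENSRNOG00000070745), a trigger of inflammation and of cell death pathways, was found in all 3 Ad-RNF128 libraries and in 1 of the 3 Ad-GFP libraries. It had 39, 68 and 28 counts in Ad-RNF128 (2.28, 3.13 and 1.45 CPM), against 0 and 0 reads in Ad-GFP replicates 2 and 3 and 20 counts, or 1.22 CPM, in Ad-GFP replicate 1. In CPM the highest control value lies just under the lowest Ad-RNF128 value. With TMM scaling over 6 libraries Ad-GFP replicate 1 is instead at 2.60, above the 1.86, 2.57 and 1.20 of Ad-RNF128. With a floor of 3 counts set in place of the 0 reads of Ad-GFP replicates 2 and 3 together, Tnf was 30.5-fold higher in Ad-RNF128. That value depends on the chosen floor and is no strict lower bound. Without Ad-GFP replicate 1, Tnf passed the low-count filter through the Ad-RNF128 libraries alone, which fixes the outcome of a test. For that comparison no p-value is given, and Tnf is not counted among the calls. Over all 6 libraries the ratio of mean CPM was 5.62, and the fitted log2 change was 1.32 ± 1.73 with an adjusted p of 0.89.

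The interleukin-1 family ligands were almost without reads in either group. Il1a (ENSRNOG00000004575), an alarm signal held in the cell until damage, had 0, 2 and 1 reads in Ad-RNF128, against 0, 0 and 1 reads in the Ad-GFP libraries. Il1b (ENSRNOG00000004649), the inflammasome-processed ligand, had 0, 2 and 0 reads in Ad-RNF128, against 0, 0 and 3 reads in the Ad-GFP libraries. Neither gene separates the groups. Il33 (ENSRNOG00000016456), a nuclear alarm signal that acts on the receptor ST2, had 1, 2 and 5 reads in Ad-RNF128, against 2, 5 and 8 reads in the Ad-GFP libraries. The Il33 ratio of counts per total, Ad-RNF128 over Ad-GFP replicates 2 and 3, was 0.417, and its exact 95% counting interval of 0.15 to 1.09 includes equality. The corresponding intervals were 0.163 to 107 for Il1a and 0.0378 to 3.95 for Il1b. These intervals cover counting error only.

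Of the 10 genes, 5 passed the low-count filter, and Il1a, Il1b, Il33 and Csf2 did not, with at most 8 counts in any library. Tnf passed through the Ad-RNF128 libraries alone, which leaves 4 genes, Il6, Lif, Il15 and Csf1. Without Ad-GFP replicate 1, 4 of these 4 were called higher and 0 lower (edgeR adjusted p under 0.05), in a comparison that called 56.9% of all 13173 genes tested, 28.9% as higher and 28% as lower. Asking in addition for a log2 change of at least 1 left 2 of them, Il6 and Il15, where 12.2% of all genes tested were called and 8.37% called higher. Over all 6 libraries 0 of the 4 and 0 of 12863 genes passed in edgeR, or 0% called, while 2 of the 4 (Il6 and Il15) and 742 of all genes had an unadjusted p under 0.05. Il6 was the 1 cytokine that DESeq2 called over 6 libraries, where it called 3.44% of genes, 2.18% as higher, and limma-voom called 0 of them and 0.109% of genes. In CPM over 6 libraries 3 of the 4, all but Lif, were higher without overlap, as were 30.4% of all genes tested. With TMM scaling the same 3 did not overlap, beside 15.5% of all genes tested. Without Ad-GFP replicate 1 the 4 were higher without overlap on both scales, as were 48.7% of all genes tested in CPM and 36.3% with TMM scaling.

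**Figure D2:**
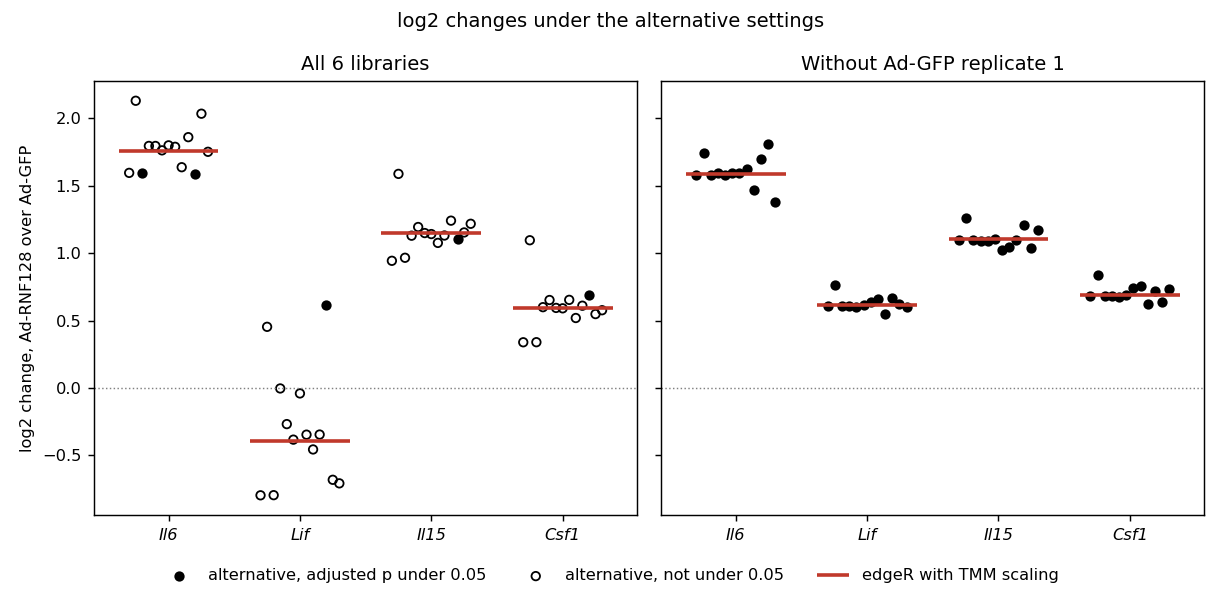
Log2 change of Il6, Lif, Il15 and Csf1, Ad-RNF128 over Ad-GFP, from all 6 libraries (left) and without Ad-GFP replicate 1 (right). The red line is edgeR with TMM scaling and each point is 1 alternative setting, filled where its adjusted p was under 0.05; Tnf is left out because 2 control libraries had no read. Lif spans -0.80 to 0.61 on the left and 0.55 to 0.77 on the right.

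The receptors of these ligands were examined as fixed lists, written with earlier results of these data known. Of 21 listed receptor and inhibitor genes, 19 had a row and 15 were tested. Of the 15, Il1rn, Il15ra and Csf1r passed the low-count filter through the Ad-RNF128 libraries alone and are described without a test. Of the other 12, the fit without Ad-GFP replicate 1 called 4 higher and 2 lower, in a comparison that called 28.9% of all genes tested as higher and 28% as lower. Over all 6 libraries 0 of the 12 were called by edgeR, DESeq2 or limma-voom and 0 had an unadjusted p under 0.05.

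For the interleukin-6 family, the receptor chain for LIF fell while the shared chain was not called. Lifr was at 7.72, 8.29 and 7.32 CPM in Ad-RNF128, against 14.7 and 16.0 CPM in Ad-GFP replicates 2 and 3 and 0.245 CPM in Ad-GFP replicate 1. It is high in 2 control libraries and lowest in the third, so the groups overlap once that library is counted. Its log2 change was -1.14 ± 0.12 without Ad-GFP replicate 1 (edgeR adjusted p = 1.33e-06) and -0.59 ± 1.01 over all 6 libraries (adjusted p = 0.93). Il6r, the interleukin-6 binding chain, was at 14.1, 15.3 and 14.9 CPM in Ad-RNF128, against 9.53 and 10.6 CPM in Ad-GFP replicates 2 and 3 and 1.77 CPM in Ad-GFP replicate 1. Il6r rose by 0.40 ± 0.11 on the log2 scale (adjusted p = 0.0083), a call that ended when Ad-GFP replicate 2 was also left out (0.30, adjusted p = 0.079), and its log2 change over all 6 libraries was 0.70 (adjusted p = 0.69). Il6st, the gp130 chain, was at 799.9, 779.7 and 789 CPM in Ad-RNF128, against 634 and 696 CPM in Ad-GFP replicates 2 and 3. With a log2 change of 0.09 ± 0.07, Il6st was not called (adjusted p = 0.26), and in Ad-GFP replicate 1 it was at 29.6 CPM. Il11ra1, which binds interleukin-11, and Osmr, which binds oncostatin M, had log2 changes of 0.21 and 0.11 and were not called. With library totals alone Il6st, Il11ra1 and Osmr were called higher, with adjusted p-values of 0.0027, 0.0075 and 0.0042. Il6st also passed without Ad-GFP replicate 3 (adjusted p = 0.035), and Il11ra1 without Ad-RNF128 replicate 2 (adjusted p = 0.044) or Ad-GFP replicate 3 (adjusted p = 0.013). The log2 changes over all 6 libraries were 0.60 for Il6st, -2.50 for Il11ra1 and 0.61 for Osmr, and 0 of these were called. In Ad-GFP replicate 1 Il11ra1 was at 159.5 CPM, above the 18.9 to 29.7 CPM of all other libraries, whereas Osmr was at 3.24 CPM, below their 67.1 to 86.8 CPM.

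**Figure D3:**
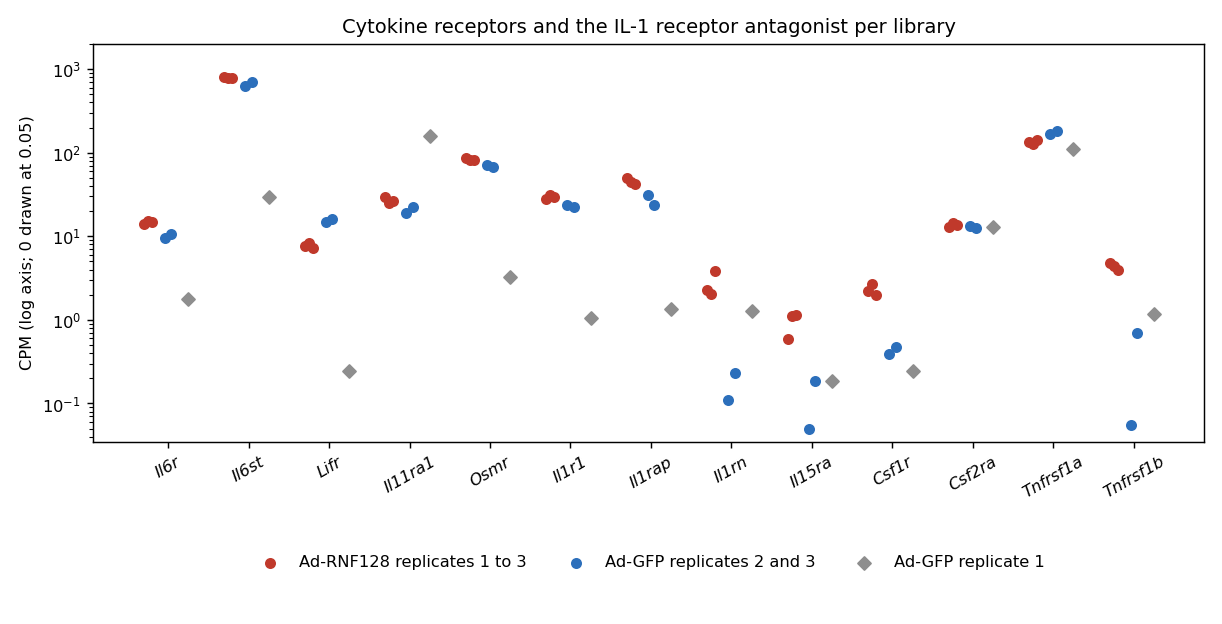
CPM on a log axis of 12 receptor genes and the antagonist gene Il1rn, with Ad-RNF128 replicates 1 to 3, Ad-GFP replicates 2 and 3 and Ad-GFP replicate 1 from left to right for each gene; a value of 0 is drawn at 0.05. Ad-GFP replicate 1 lies far below the other libraries for Il6st, Lifr, Osmr and Il1r1 and above them for Il11ra1.

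On the interleukin-1 side, the antagonist gene had few reads in Ad-GFP replicates 2 and 3. Il1rn encodes the secreted antagonist that occupies the interleukin-1 receptor without signalling. It had 39, 44 and 74 counts in Ad-RNF128 (2.28, 2.03 and 3.84 CPM), against 2 and 5 reads in Ad-GFP replicates 2 and 3 and 21 counts (1.28 CPM) in Ad-GFP replicate 1. In CPM the groups do not overlap, and 30.4% of all genes tested over 6 libraries were higher without overlap. With TMM scaling over 6 libraries Ad-GFP replicate 1 is at 2.73, inside the Ad-RNF128 range of 1.66 to 3.18. The ratio of Il1rn counts per total, Ad-RNF128 over Ad-GFP replicates 2 and 3, was 15.2. Il1rap, the accessory chain of the interleukin-1 receptor, was at 42.1 to 49.2 CPM in Ad-RNF128, against 30.9 and 24.0 CPM in Ad-GFP replicates 2 and 3 and 1.35 CPM in Ad-GFP replicate 1. It rose by 0.57 ± 0.10 (edgeR adjusted p = 0.000168), and its log2 change over all 6 libraries was 1.06 (adjusted p = 0.72). Il18bp, which encodes a decoy that binds interleukin-18, was at 8.67 to 9.06 CPM in Ad-RNF128, against 5.93 and 4.50 CPM in Ad-GFP replicates 2 and 3 and 7.03 CPM in Ad-GFP replicate 1. It rose by 0.61 ± 0.15 (adjusted p = 0.0025), and over all 6 libraries its log2 change was of the other sign, -0.16 (adjusted p = 0.98). Il1r1, the signalling receptor, and Il1rl1, the interleukin-33 receptor ST2, had log2 changes of 0.19 and 0.23 and were not called. Il1r1, with an adjusted p of 0.055, was called in 4 of 12 alternatives, among them library totals alone (adjusted p = 0.0026) and the replicate block (adjusted p = 0.027), and Il1rl1 in 0 of 12. No row named Sigirr was found, and the decoy receptor gene Il1r2 had at most 2 counts in any library.

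Receptors for the other ligands moved in both directions. Csf1r, the receptor for Csf1 and a gene typical of macrophages, had 38, 58 and 38 counts in Ad-RNF128 (2.22, 2.67 and 1.97 CPM), against 7 and 10 reads in Ad-GFP replicates 2 and 3 and 4 counts in Ad-GFP replicate 1. Every Ad-RNF128 library was above every Ad-GFP library, with TMM scaling over 6 libraries too. The same held for 30.4% of all genes tested in CPM and 15.5% with TMM scaling. Because Csf1r passed the low-count filter through the Ad-RNF128 libraries alone, no weight is placed on this separation. The ratio of Csf1r counts per total, Ad-RNF128 over Ad-GFP replicates 2 and 3, was 5.35. Tnfrsf1b, the inducible TNF receptor 2, had 81, 96 and 76 counts in Ad-RNF128, against 1 and 15 reads in Ad-GFP replicates 2 and 3 and 19 in Ad-GFP replicate 1. Its 2 controls differ widely, and its rise of 3.26 ± 0.41 on the log2 scale (edgeR adjusted p = 1.04e-05) became 2.44 without Ad-GFP replicate 2 and 6.02 without Ad-GFP replicate 3. The log2 change of Tnfrsf1b over all 6 libraries was 1.86 (adjusted p = 0.68). Tnfrsf1a, the widely expressed TNF receptor 1, fell instead, with 136, 129 and 144 CPM in Ad-RNF128, against 167 and 180.4 CPM in Ad-GFP replicates 2 and 3 and 109 CPM in Ad-GFP replicate 1, which is below all of them. The log2 change of Tnfrsf1a was -0.51 ± 0.07 (adjusted p = 3.37e-05) and over all 6 libraries -0.72 (adjusted p = 0.68). Il15ra, the chain that presents interleukin-15, had 10, 24 and 22 counts in Ad-RNF128, against 0 and 4 reads in Ad-GFP replicates 2 and 3 and 3 counts in Ad-GFP replicate 1. The ratio of Il15ra counts per total, Ad-RNF128 over Ad-GFP replicates 2 and 3, was 9.50. Csf2ra, the GM-CSF binding chain, was at 13.0 to 14.6 CPM in Ad-RNF128 and 12.7 to 13.1 CPM over all Ad-GFP libraries (log2 change -0.06 ± 0.11, adjusted p = 0.68, and 0.10 with library totals alone).

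**Figure D4:**
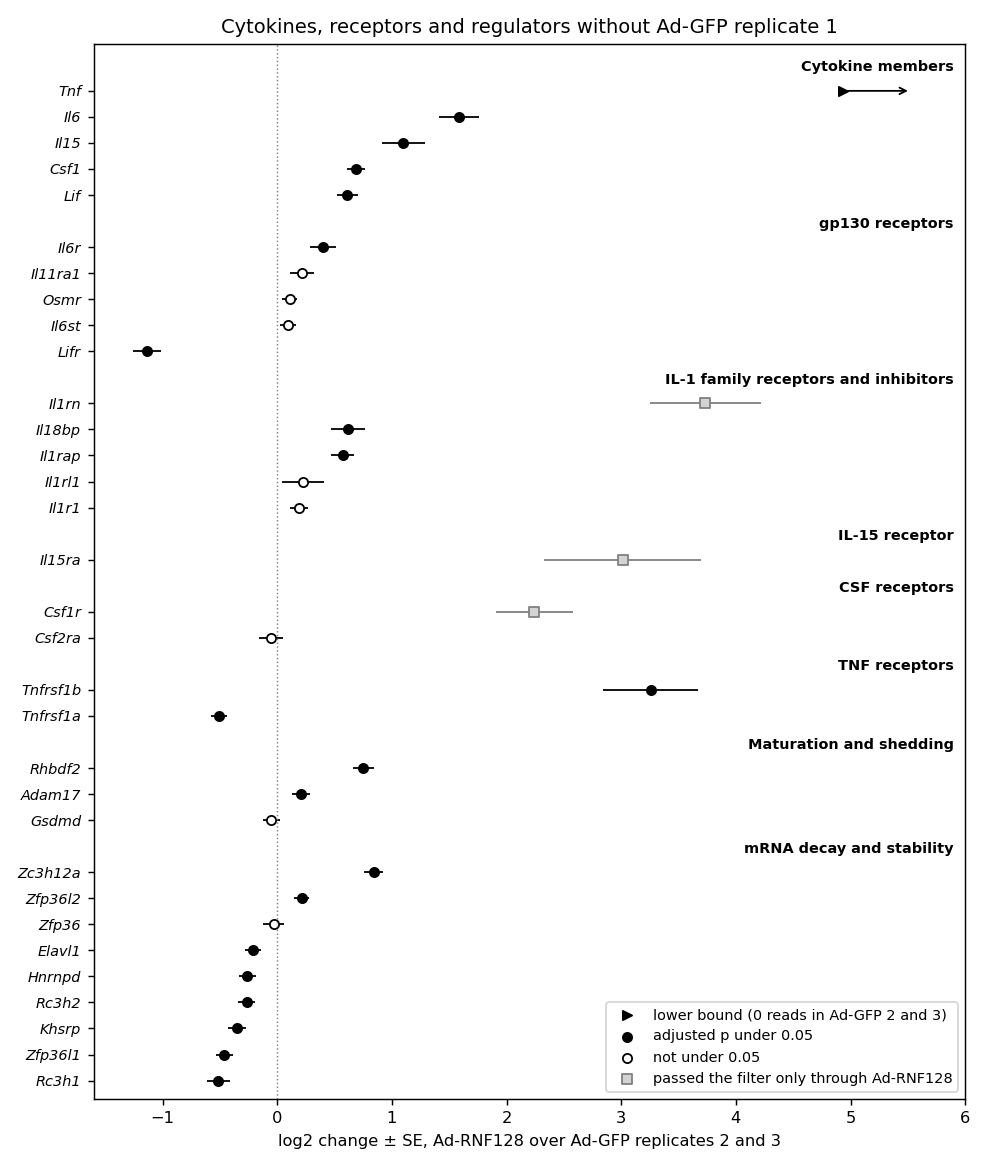
Log2 change with its SE, Ad-RNF128 over Ad-GFP replicates 2 and 3, for the tested cytokine, receptor, maturation and mRNA decay and stability genes. Filled points had an edgeR adjusted p under 0.05. Grey squares mark Il1rn, Il15ra and Csf1r, which passed the low-count filter through the Ad-RNF128 libraries alone. The arrow for Tnf, labelled as a lower bound, starts at its value against a floor of 3 counts, which is no strict lower bound. Tnf too passed the filter through the Ad-RNF128 libraries alone. Among the receptors Lifr (-1.14), Tnfrsf1a (-0.51) and Csf2ra (-0.06) lie left of 0, and Tnfrsf1b (3.26) lies farthest right of the filled points.

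Of 4 listed genes that mature or release these cytokines, 3 were tested and 2 were called higher, beside 28.9% of all genes tested. Rhbdf2, a partner of the sheddase that frees TNF from the membrane, was at 23.2, 23.7 and 25.2 CPM in Ad-RNF128, against 12.9 and 12.8 CPM in Ad-GFP replicates 2 and 3 and 24.3 CPM in Ad-GFP replicate 1, inside the Ad-RNF128 range. Rhbdf2 rose by 0.75 ± 0.09 on the log2 scale without Ad-GFP replicate 1 (edgeR adjusted p = 7.78e-06), against a log2 change of -0.34 over all 6 libraries. Adam17, the sheddase itself, was called with a log2 change of 0.21 ± 0.08 (adjusted p = 0.039), against 0.70 over all 6 libraries (adjusted p = 0.85). That call ended with DESeq2 (adjusted p = 0.074) and without Ad-RNF128 replicate 2 (adjusted p = 0.066), Ad-RNF128 replicate 3 (adjusted p = 0.093) or Ad-GFP replicate 3 (adjusted p = 0.37). Casp1, which cleaves interleukin-1 beta, had 7, 14 and 5 counts in Ad-RNF128, against 4 and 0 reads in Ad-GFP replicates 2 and 3 and 1 in Ad-GFP replicate 1, and was not tested. The ratio of Casp1 counts per total, Ad-RNF128 over Ad-GFP replicates 2 and 3, was 4.41. The exact 95% counting interval of this ratio, 1.53 to 17.4, covers counting error only. In CPM the Casp1 groups did not overlap, and 30.4% of all genes tested over 6 libraries were higher without overlap. Gsdmd, which encodes the pore through which interleukin-1 beta leaves the cell, had a log2 change of -0.05 and was not called.

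Proteins that bind cytokine transcripts and set their decay or stability formed a list of 9, all tested. Its members do not all act in the same direction on transcripts. Of the 9, 2 rose and 6 fell without Ad-GFP replicate 1, beside 28.9% and 28% of all genes tested. With library totals alone 2 rose and 3 fell, where 5367 genes were called higher and 2409 lower. The median log2 change was -0.26, beside 0.01 over all genes tested. Over all 6 libraries edgeR called 0 of the 9, 0 of them had an unadjusted p under 0.05, DESeq2 and limma-voom called 0, and 4 had a log2 change above 0 with TMM scaling and 8 with library totals alone. Zc3h12a encodes Regnase-1, a nuclease that degrades Il6 transcripts. It was at 31.1, 33.9 and 33.9 CPM in Ad-RNF128, against 16.8 and 16.3 CPM in Ad-GFP replicates 2 and 3 and 62.6 CPM in Ad-GFP replicate 1, the highest of all. Zc3h12a rose by 0.84 ± 0.09 on the log2 scale (edgeR adjusted p = 1.07e-06), against a log2 change of -1.01 over all 6 libraries. Rc3h1, which encodes roquin-1, and Zfp36l1, which encodes a decay factor of AU-rich transcripts, had log2 changes of -0.51 ± 0.10 (adjusted p = 0.00066) and -0.46 ± 0.07 (adjusted p = 8.82e-05). In Ad-GFP replicate 1 they were at 0.367 and 1.90 CPM, far below the other libraries, and over all 6 libraries their log2 changes were of the other sign, 0.02 for Rc3h1 and 0.06 for Zfp36l1. Khsrp, another decay factor, had -0.35 ± 0.08 (adjusted p = 0.0011) and over all 6 libraries -0.49 (adjusted p = 0.69). The smaller changes were less stable. Rc3h2 (-0.27), Hnrnpd (-0.26) and Elavl1 (-0.21) were not called with library totals alone (adjusted p = 0.24, 0.22 and 0.53). They also lost the call without Ad-GFP replicate 2 for Rc3h2 (adjusted p = 0.088), without Ad-GFP replicate 3 for Hnrnpd (adjusted p = 0.076), and without Ad-RNF128 replicate 1 or 3 or Ad-GFP replicate 2 or 3 for Elavl1 (adjusted p = 0.053 to 0.12). With all 6 libraries Rc3h2 had a log2 change of 0.30, Hnrnpd -0.04 and Elavl1 -0.18. Zfp36l2 rose by 0.21 and had 0.68 over all 6 libraries, and the call ended without Ad-GFP replicate 2 (adjusted p = 0.061). Zfp36, which encodes tristetraprolin, the decay factor of Tnf transcripts, had a log2 change of -0.03 and was not called.

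Ligands outside the 10 were counted in 3 further lists. Of 24 other interleukins and growth factors, 11 had a row and 3 were tested. Il7 passed the low-count filter through the Ad-RNF128 libraries alone and was not tested over 6 libraries, and the other 2, Il23a and Kitlg, were called higher without Ad-GFP replicate 1, beside 28.9% of all genes tested. Il23a, which encodes the p19 chain of interleukin-23, had 86, 187 and 122 counts in Ad-RNF128 (5.03, 8.61 and 6.34 CPM), against 16 and 23 reads in Ad-GFP replicates 2 and 3 and 21 in Ad-GFP replicate 1. The groups did not overlap, in CPM or with TMM scaling over 6 libraries, beside 30.4% and 15.5% of all genes tested. Il23a rose by 2.60 ± 0.28 on the log2 scale (edgeR adjusted p = 1.75e-06), and over all 6 libraries the log2 change was 1.89 ± 0.60 (adjusted p = 0.58). Kitlg, the stem cell factor gene, was at 77.6, 82.1 and 74.0 CPM in Ad-RNF128, against 56.1 and 42.0 CPM in Ad-GFP replicates 2 and 3 and 0.612 CPM in Ad-GFP replicate 1, and rose by 0.52 ± 0.09 (adjusted p = 0.000255). The log2 change of Kitlg over all 6 libraries was 1.07 (adjusted p = 0.82). Il7, a lymphocyte growth factor gene named after its values were seen, had 10, 11 and 15 counts in Ad-RNF128, against 0, 0 and 1 reads in the Ad-GFP libraries. The ratio of Il7 counts per total, Ad-RNF128 over Ad-GFP replicates 2 and 3, was 24.4, resting on 1 control read. Other genes of this list that were not tested went both ways. Il34 had 0, 2 and 2 counts in Ad-RNF128, against 4, 5 and 11 in Ad-GFP replicates 1 to 3. Csf3 had 4, 7 and 4 counts in Ad-RNF128, against 1, 2 and 2, and Il18 had 1, 4 and 2, against 0 in each.

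Of 6 other gp130 ligands and partners, 4 had a row and 3 were tested, with 0 higher and 1 lower, beside 28.9% and 28% of all genes tested. Ctf1, which encodes the heart growth factor cardiotrophin-1, was at 21.5, 19.6 and 23.2 CPM in Ad-RNF128, against 26.8 and 28.0 CPM in Ad-GFP replicates 2 and 3 and 19.7 CPM in Ad-GFP replicate 1. Ad-GFP replicate 1 lies within the Ad-RNF128 range. Ctf1 had a log2 change of -0.51 ± 0.09 (edgeR adjusted p = 0.000247) without that library and -0.80 ± 0.38 with it (adjusted p = 0.68). Cntf, the ciliary neurotrophic factor gene, was not called. Of 15 other ligands of the TNF family, 9 had a row and 4 were tested, of which Tnfsf15 and Tnfsf18 passed the low-count filter through the Ad-RNF128 libraries alone. Of the other 2, 1 was called higher. Tnfsf15, which encodes the T cell costimulator TL1A, had 44, 40 and 38 counts in Ad-RNF128, against 9 and 4 reads in Ad-GFP replicates 2 and 3 and 2 counts in Ad-GFP replicate 1. The ratio of Tnfsf15 counts per total, Ad-RNF128 over Ad-GFP replicates 2 and 3, was 6.37. Tnfsf12, which encodes the cytokine TWEAK, rose by 0.39 ± 0.11 (adjusted p = 0.0063), a call that ended without Ad-GFP replicate 2 (adjusted p = 0.08), and its log2 change over all 6 libraries was -1.40. Tnfsf18, named after its values were seen, had 18, 23 and 12 counts in Ad-RNF128 and 0, 3 and 5 in Ad-GFP replicates 1 to 3.

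Markers of other cell types were summed per library. Of 9 macrophage markers 8 had a row, and their summed level was 20.4 to 21.4 CPM in Ad-RNF128, against 16.4 to 17.4 CPM in Ad-GFP replicates 2 and 3 and 34.6 CPM in Ad-GFP replicate 1, most of it Cd14. The defining markers were at or near 0, with Ptprc at 0, 2 and 3 counts in Ad-RNF128 and 0, 0 and 0 counts in Ad-GFP, and Adgre1 at 2, 1 and 0 counts in Ad-RNF128 and 0, 0 and 0 counts in Ad-GFP. Cd68 had 12, 24 and 17 counts in Ad-RNF128, against 4 and 8 in Ad-GFP replicates 2 and 3 and 6 in Ad-GFP replicate 1, and it too passed the low-count filter through the Ad-RNF128 libraries alone. Of the other 2 macrophage markers tested 0 were called. The 4 of 7 listed T and NK cell genes with a row summed to 1.06 to 1.82 CPM in Ad-RNF128. In Ad-GFP they summed to 2.10 and 2.20 CPM in replicates 2 and 3 and to 1.41 CPM in replicate 1, inside the Ad-RNF128 range. Most of it was Cd3e, with a log2 change of -1.02 ± 0.27 without Ad-GFP replicate 1 (edgeR adjusted p = 0.0054). Over all 6 libraries that of Cd3e was -0.96 (adjusted p = 0.68). The 6 endothelial markers summed to 6.96 to 8.13 CPM in Ad-RNF128, against 4.64 and 4.99 CPM in Ad-GFP replicates 2 and 3, and to 6.48 CPM in Ad-GFP replicate 1. Of these, Vwf rose by 0.51 ± 0.17 on the log2 scale (edgeR adjusted p = 0.017), against a log2 change of -0.25 over all 6 libraries, and Cdh5 had 12, 15 and 7 counts in Ad-RNF128, against 10, 2 and 5 in Ad-GFP replicates 1 to 3. Pecam1 had 2, 6 and 0 counts in Ad-RNF128, against 1, 4 and 5 in Ad-GFP replicates 1 to 3. The B cell list summed to at most 0.184 CPM and the mast cell list to at most 0.122 CPM in any library. The 6 fibroblast markers summed to 10251 to 11144 CPM in Ad-RNF128, against 38191 and 39796 CPM in Ad-GFP replicates 2 and 3 and 2956 CPM in Ad-GFP replicate 1. Of these, 4 (Col1a1, Col1a2, Col3a1 and Postn) were called lower, beside 28% of all genes tested, and 0 over all 6 libraries. Pdgfra and Dcn were not called, with log2 changes of 0.55 and -0.55 (edgeR adjusted p = 0.57 and 0.25). The cardiomyocyte markers summed to 118.6, 87.1 and 35.4 CPM in Ad-RNF128, against 398 and 394.9 CPM in Ad-GFP replicates 2 and 3 and 76.7 CPM in Ad-GFP replicate 1, most of it Tnnt2 in Ad-GFP replicates 2 and 3. The skeletal myoblast list held 3 genes with a row, and they shifted in both directions. Des, a filament gene of all muscle, was at 69.9, 66.7 and 68.5 CPM in Ad-RNF128, against 7.70 and 8.63 CPM in Ad-GFP replicates 2 and 3 and 106 CPM in Ad-GFP replicate 1, and rose by 2.91 ± 0.09 (adjusted p = 2.75e-12). Myog and Myod1, regulators of skeletal muscle, fell by 2.61 and 0.92 on the log2 scale (adjusted p = 2.9e-10 and 1.13e-06). That fit called 28.9% of all genes tested as higher and 28% as lower. Over all 6 libraries the log2 change of Des was of the other sign, -0.50, and those of Myog and Myod1 were -2.20 and -1.64. They were not called there (edgeR adjusted p = 0.97, 0.45 and 0.66). The part of these shifts in the cytokine values was not tested.

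The genes nearest to each cytokine in profile were sought over the 6 libraries, as the root-mean-square difference between log2(CPM + 0.5) profiles centred on their means, among 11143 other genes with a mean of at least 1 CPM. Nearest to Il6 were Dph5, Znfx1 and Ly96, at differences of 0.114, 0.137 and 0.146. For Csf1 they were Ripk3, Pfkp and Hoxc6, at 0.0422, 0.0539 and 0.0697. For Il15 they were Lrrfip2, Trit1 and Fscn3, at 0.101, 0.104 and 0.107. Among the nearest to Lif were Chmp2a and Wipi2, at 0.0485 and 0.0773, and nearest to Tnf were Batf2, Stat2 and Cdk18, at 0.198, 0.273 and 0.282. All profiles share the same 6 libraries, among which Ad-GFP replicate 1 stands apart.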

How the data were processed

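Poly(A) RNA was sequenced from 6 libraries. The authors deposited 1 table of read counts per gene and library; per the submitters' processing notes HISAT2, HTSeq 0.13.5 and the build mRatBN7.2 were used. Whether counting used strand is not stated there, so reads of a gene and of an antisense partner may be mixed. The table of Ad-GFP replicate 1 was given the unit expected counts because 1 deposited value is not whole; it was rounded. CPM values were computed from these counts.

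Differential expression was tested over all rows with edgeR 4.0.16 (filterByExpr, TMM, quasi-likelihood F-test, Benjamini-Hochberg, threshold 0.05) in R 4.3.3, for 6 libraries and without Ad-GFP replicate 1, where the spread is pooled over both groups. SEs come from the log2 change and its F statistic. Fits were checked on simulated data. DESeq2 1.42.0, limma-voom (limma 3.58.1), other scalings and filters, a replicate block and left-out libraries were alternatives, and a minimum log2 change of 1 was added after seeing the data. Members, lists and tests were chosen with earlier results of these data known. All listed cytokines are named; of the other lists, up to 6 called receptors, maturation or decay genes with the largest change, and ligands with a mean of at least 1 CPM, and genes named beyond this rule were chosen after their values were seen. A few genes that this rule selects are not reported here. Sequences are from RefSeq.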

Additional observations from a re-analysis of the deposited data

How the results depend on the processing

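Without Ad-GFP replicate 1, 7501 genes were called, and 4 cytokines, Il6, Lif, Il15 and Csf1, were counted as called. Tnf, which passed the low-count filter through the Ad-RNF128 libraries alone, is left out of these counts. Each of the 4 kept its direction in 12 of 12 alternatives. Each stayed called in every alternative that kept Ad-GFP replicates 2 and 3. Leaving out 1 Ad-RNF128 library as well kept the 4 called each time and called 6747 to 7125 genes. A minimum log2 change of 1, added after seeing the data, left Il6 and Il15 of the 4, and 1601 genes. With library totals alone the median over all genes was 0.17 on the log2 scale, against 0.01 with TMM, and edgeR called 5367 genes higher and 2409 lower, against 3812 and 3689 with TMM.

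Over all 6 libraries, 0 cytokines and 0 genes were called with edgeR. DESeq2 called 1 cytokine (Il6) and 386 genes, limma-voom 14 genes and library totals alone 8 genes, with no cytokine in the last 2. Leaving out 1 library gave 0 cytokines and 0 genes, except for Ad-GFP replicate 1, where the calls are those given above. Over 13 alternatives each, Il6 passed the threshold in 2, with DESeq2 and without Ad-GFP replicate 1. Il15 and Csf1 passed it in 1, without Ad-GFP replicate 1, and Lif reversed in 2. The reversed values of Lif were a log2 change of 0.45 with library totals alone and 0.61 without Ad-GFP replicate 1, against -0.39. Without each library in turn Lif ranged over -0.71 to 0.61. The cause was not tested.

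The replicate numbers name samples only. Deviations of same-numbered libraries from their group means correlated at -0.19, 0.021 and -0.15 over genes. Without Ad-GFP replicate 1 they correlated at 0.072 and 0.16 for numbers 2 and 3. Deviations within a group sum to 0, so these values are not independent and cannot show whether libraries were paired. With the replicate block 0 cytokines and 0 genes were called over 6 libraries. Without Ad-GFP replicate 1, 5 cytokines and 7795 genes had an adjusted p under the threshold with this block. The 5 include Tnf, which passed the low-count filter through the Ad-RNF128 libraries alone. Tnf is therefore not counted as called here either, which leaves 4, Il6, Lif, Il15 and Csf1. The depth limits Il1a, Il1b, Il33 and Csf2, whose counting intervals include equality.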
